A study of Homo sapiens with 6 samples.

Results

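The genes described here are 32 direct transcriptional targets of the tumour suppressor p53, taken by symbol from a fixed list among the 62700 genes of the deposited count table. All 32 were found, and 31 had enough reads to be among the 20250 genes tested. RNA came from cultures labelled MKN-45, a long-established line derived from a human gastric adenocarcinoma, with 3 control libraries and 3 libraries labelled as knockdown of NNMT, the cytosolic enzyme that methylates nicotinamide. The controls received a non-targeting RNA by the treatment and genotype labels, whereas the design text calls them untouched, and the labels name both siRNA and shRNA as the transfected RNA. Cells of both groups grew in the same serum-containing medium and were harvested 48 h after transfection, per the labels' protocols, which call the 3 cultures of a group independent biological replicates. No age, dose or drug distinguishes the groups.

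The transcription factor p53 is held at a low level in unstressed cells, largely because the ubiquitin ligase MDM2 marks it for degradation. DNA damage and other stresses release it from MDM2, and it then binds paired copies of a short DNA element near its target genes. Its targets arrest the cell cycle, repair DNA, adjust metabolism, trigger cell death, and, through MDM2 and other genes, switch p53 itself off again.

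The p53 element is built of half-sites, each a 10-base p53 consensus half-site that reads as its own reverse complement, so that 1 search covers both strands. RefSeq promoter windows of 300 bases, from 250 bases before to 50 bases after the transcript start in GRCh38.p14, were matched for 26 of the 32 genes. An exact match to the half-site was present in the windows of 7 of these 26 genes (26.9%), against 8.06% of the 27305 genes with a window. A pair of such exact matches with 0 to 13 bases between them was present in 1 of the 26, DDB2, against 10 of all 27305 genes (0.0366%). Some genes had several windows. Per window, a half-site was present in 18.4% of the 38 windows of the targets and 6.63% of all 35116 windows. As the list consists of direct p53 targets, a higher share is not an independent result. GADD45A, PHLDA3, RRM2B, TNFRSF10B, TNFRSF10C and TP53INP1 were not matched to a window. The shorter core CATG, which equals its own reverse complement and occurs within some half-sites, was in the windows of 38.5% of the 26 genes and 60.6% of all genes. The 7 stretches are shown because they hold the matches. The DDB2 stretch holds a pair of exact matches, and the other 6 hold a single exact match. Half-sites with a mismatch were not searched for, so a single match does not show that a second, imperfect half-site is absent. They are written 5′ to 3′ on the strand of the gene, with half-sites in capitals and up to 20 flanking bases.
DDB2, chr11:47214959-47214999, plus strand: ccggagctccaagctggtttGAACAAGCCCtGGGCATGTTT
AEN, chr15:88621286-88621335, plus strand: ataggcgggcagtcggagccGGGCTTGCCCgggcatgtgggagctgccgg
FAS, chr10:88991289-88991338, plus strand: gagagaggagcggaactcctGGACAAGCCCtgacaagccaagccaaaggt
FDXR, chr17:74872976-74873025, minus strand: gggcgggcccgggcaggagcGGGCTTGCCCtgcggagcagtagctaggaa
PLK2, chr5:58460189-58460238, minus strand: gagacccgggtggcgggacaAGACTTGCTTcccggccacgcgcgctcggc
RPS27L, chr15:63157507-63157556, minus strand: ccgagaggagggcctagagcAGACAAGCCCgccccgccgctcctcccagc
SESN1, chr6:109009008-109009057, minus strand: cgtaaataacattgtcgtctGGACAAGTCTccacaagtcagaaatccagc
In DDB2 the half-sites begin 6 and 17 bases after the transcript start and are 1 base apart. Such a match describes the letters in this window and does not show binding, and the element of many p53 targets lies outside a window of this kind.

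Library totals ranged from 40558680 to 56067484 reads, with mates of a pair counted singly. NNMT itself was near the detection limit, at 0, 0.166 and 0.214 CPM (reads scaled to a common library total) in control replicates 1, 2 and 3 and 0.0493, 0.176 and 0.322 CPM in labelled-knockdown replicates 1, 2 and 3. It was not lowered in the libraries labelled as knockdown, so that label is kept as a label in every comparison below. All 6 epithelial markers were present, whereas 10 of 14 gastric and intestinal markers were under 1 CPM in every library and CDX1, CDX2 and GKN1 had 0 reads. The gastric list summed to between 37.4 and 102 CPM in control and 42.8 and 104 CPM in labelled-knockdown libraries. Fibroblast markers summed to 326 to 414 and 336 to 633 CPM, endothelial markers to 152 to 270 and 125 to 239 CPM, and leukocyte markers to 1.71 to 1.72 and 0.705 to 2.22 CPM, in the same order of groups. Under 1 CPM in every library were 2 of 6 fibroblast, 2 of 4 endothelial and 5 of 6 leukocyte markers. Their part in the results below was not tested.

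No p53 target gene passed the test in either direction. Of the 31 tested targets, 0 were higher and 0 were lower in labelled-knockdown than in control libraries by edgeR's quasi-likelihood test at an adjusted p of 0.05, where the share over all 20250 tested genes was 0%. At an unadjusted p under 0.05 the count was also 0 of 31, against 4.03% of all tested genes. The estimated log2 fold change lay above 0 for 12 targets and below 0 for 19. Its median was -0.06, against 0.00 over all tested genes, of which 49.2% lay below 0. ZMAT3 was the single tested target whose control and labelled-knockdown libraries did not overlap in CPM, which is 3.23% of the targets against 9.17% of all tested genes. DESeq2 likewise called 0 targets, against 0.0395% of genes, with TP53INP1 its single target at an unadjusted p under 0.05, against 4% of genes. Without a filter on low counts, edgeR again called 0 targets, against 0.19%, and TP53INP1 and SESN2 (lower) and SPATA18 (higher) had an unadjusted p under 0.05, against 4.73%.

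These counts depended on single libraries, most on control replicate 1. Without it, 7 of the 32 then tested targets had an unadjusted p under 0.05 in edgeR, against 5.56% of all genes. Of those 7, DDB2, BAX, SPATA18 and TP53I3 were higher and BBC3, TP53INP1 and SESN2 were lower, and none passed after adjustment. SPATA18 passed the filter there only through labelled-knockdown libraries, where it was higher, so its p is not evidence of a difference. The count was 0 without control replicate 2 (1.95% of all genes), 1 without control replicate 3 (5.22%), 1 without labelled-knockdown replicate 1 (2.59%), 1 without labelled-knockdown replicate 2 (4.34%) and 2 without labelled-knockdown replicate 3 (6.63%). Groups that did not overlap numbered 11 of the 31 targets without control replicate 1, against 22.7% of all tested genes. They numbered 2 without control replicate 2 (14.9%), 7 without control replicate 3 (20%), 5 without labelled-knockdown replicate 1 (15.9%), 2 without labelled-knockdown replicate 2 (20.1%) and 6 without labelled-knockdown replicate 3 (22%). Fewer libraries overlap less readily by construction.

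The comparison bounded the size of change for most targets. The 95% interval of the fold lay within 2-fold in either direction for 29 of the 31 tested targets and within 1.5-fold for 22, and all 31 intervals held 1. The remaining targets, TNFRSF10C and EDA2R, were among the least abundant. In simulated data with 200 changed genes among 20250, the same test recovered 90% of genes changed 2-fold and 98% of those changed 4-fold at 5 CPM or more. The simulated counts were drawn independently for each gene, without differences between libraries shared by many genes. With fewer changed genes the adjusted threshold is also harder to pass, so recovery in the real libraries may be lower. Bulk RNA cannot tell fewer cells expressing a gene from less RNA per cell.

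**Figure D1:**
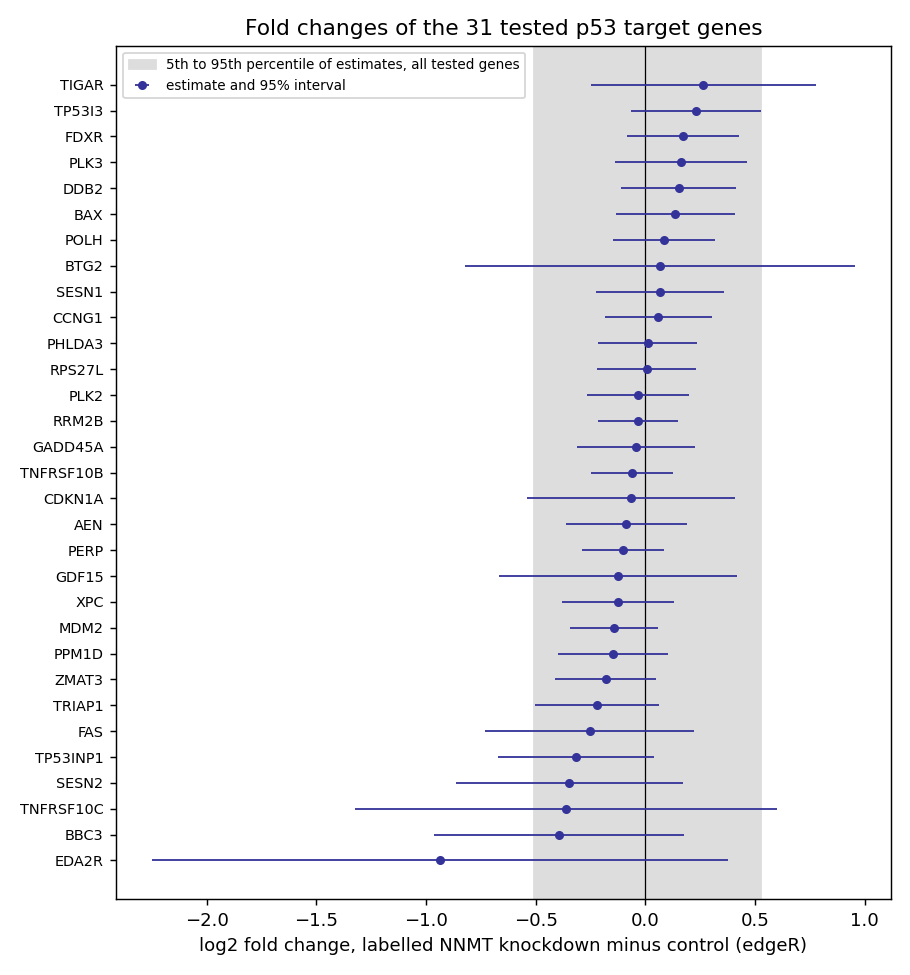
The horizontal axis gives the log2 fold change of labelled-knockdown against control libraries from edgeR, with a point for each of the 31 tested p53 target genes ordered by its estimate, a bar for its 95% interval and a grey band for the 5th to 95th percentile of all tested genes (-0.51 to 0.53). Every bar crosses 0, 12 points lie above 0 and 19 below, and the longest bar is that of EDA2R.

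The targets differed widely in level. CPM divided by the kilobases of merged exon (RPKM) sets genes of different length side by side. The most abundant were GDF15 at 83.7, GADD45A at 51.6, PERP at 28.5, CCNG1 at 27.6 and TNFRSF10B at 27.3 RPKM on average over the 6 libraries. With the longest GENCODE 29 transcripts in place of merged exons, GDF15 stood at 146 and GADD45A at 66.4 RPKM. CCNG1 at 34.8 and TNFRSF10B at 33 RPKM then lay above PERP at 27.9 RPKM. The median tested target had 6.22 RPKM, against 2.42 over all tested genes. Under 1 RPKM were BTG2, FAS, TNFRSF10C, EDA2R, TIGAR and SPATA18. FAS was placed there by its merged exons of 29313 bases. With its longest GENCODE 29 transcript of 2563 bases its level was 3.63 RPKM, and 5 targets remained under 1.

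**Figure D2:**
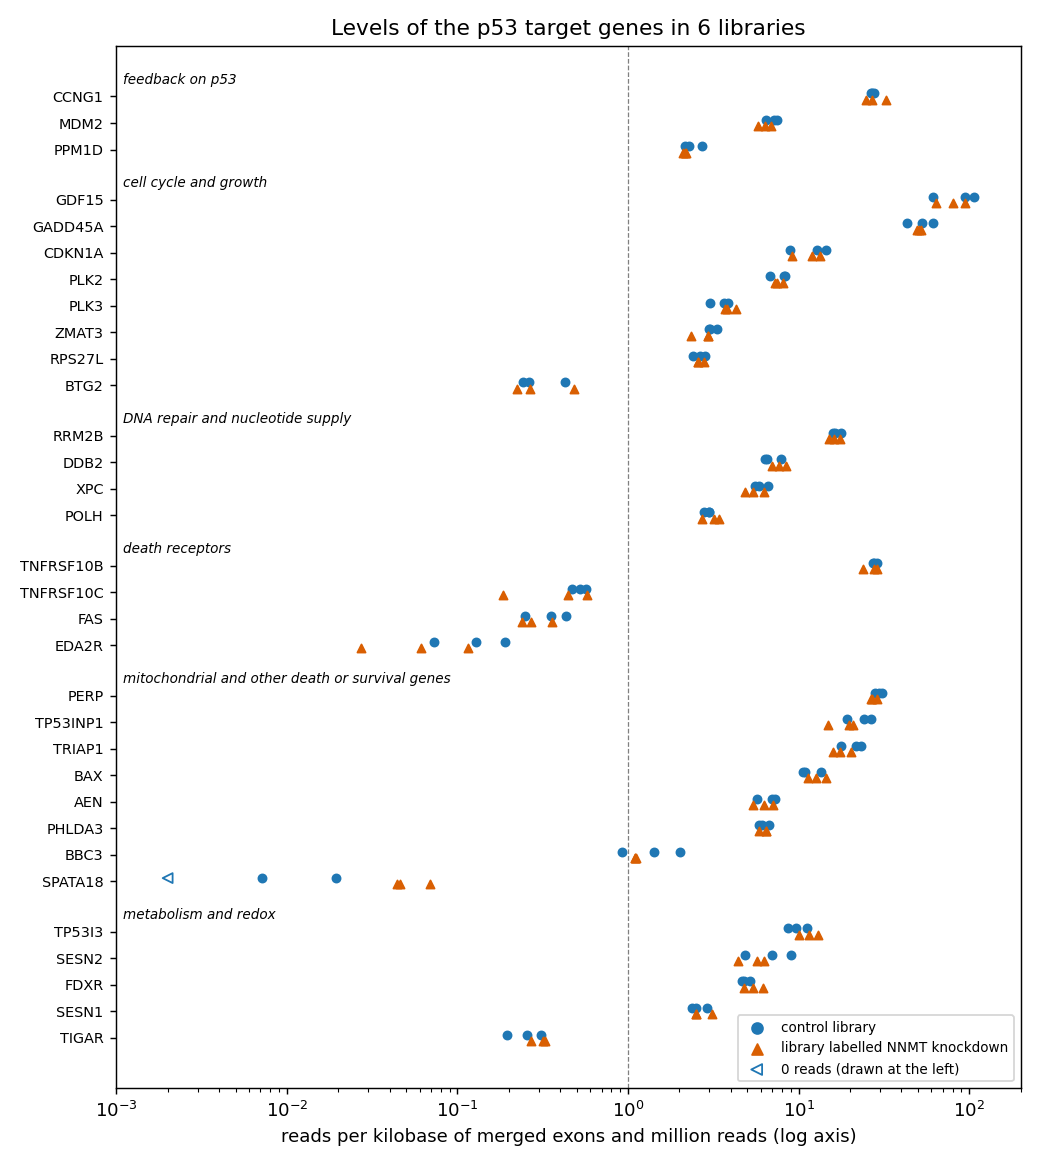
Each p53 target gene is placed by its level in RPKM, on a log axis, with a point for each control and each labelled-knockdown library. Genes are grouped by role, an open triangle marks 0 reads and the dashed line 1 RPKM. GDF15 lies farthest right with a mean of 83.7 RPKM and SPATA18 farthest left with 0.0311 RPKM.

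None of the 3 genes that feed back on p53 passed the test, and 1 estimate lay above 0 and 2 below. MDM2, on chromosome 12 from 68808177 to 68845544 in hg38, encodes the ligase that targets p53 for degradation. Its level was 53.3, 59.5 and 62.4 CPM in control replicates and 48.2, 53.1 and 57.1 CPM in labelled-knockdown replicates. The groups overlapped, with means of 58.4 ± 4.66 and 52.8 ± 4.46 CPM (SD, n = 3 each), and the fitted fold was 0.906 with a 95% interval from 0.788 to 1.04. CCNG1 encodes cyclin G1, which recruits a phosphatase to MDM2, and had the highest level per length of this group. It stood at 86.2, 82 and 83.2 CPM in control and at 101, 83.3 and 76.7 CPM in labelled-knockdown libraries. The labelled-knockdown libraries enclosed the control range, and the interval of the fold ran from 0.88 to 1.23. PPM1D, the phosphatase WIP1 that dephosphorylates p53 and its activating kinases, ranged from 19.7 to 25.5 CPM, with a log2 fold change of -0.15.

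Among the cell cycle and growth targets, CDKN1A encodes p21, the inhibitor of cyclin-dependent kinases through which p53 stops the cell cycle. It lies on chromosome 6 from 36676460 to 36687337. Control replicates had 26.8, 43.6 and 38.4 CPM and labelled-knockdown replicates 40.1, 27.3 and 36.1 CPM. Each group held 1 low library, control replicate 1 and labelled-knockdown replicate 2, at nearly the same level. The means were 36.3 ± 8.56 and 34.5 ± 6.58 CPM (SD, n = 3 each), and the fold of 0.956 had an interval from 0.689 to 1.33. GDF15, a secreted cytokine of the TGF-beta superfamily on chromosome 19 from 18374731 to 18389176, had 128, 222 and 198 CPM in control and 169, 134 and 198 CPM in labelled-knockdown libraries. The same libraries were lowest, and the fold of 0.917 had an interval from 0.63 to 1.34.

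ZMAT3 encodes an RNA-binding zinc finger protein and lies on chromosome 3 from 178960121 to 179072215. It had 34, 33.7 and 37.7 CPM in control and 26.5, 33.1 and 33.3 CPM in labelled-knockdown libraries. All 3 control libraries lay above all labelled-knockdown libraries, though the highest of the latter was close to the lowest of the former. The means were 35.1 ± 2.21 and 31 ± 3.92 CPM (SD, n = 3 each). The log2 fold change was -0.18 (SE 0.104), with an adjusted p of 0.999 in edgeR and an exact two-sided permutation p of 0.1, the smallest that 3 against 3 libraries allow.

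GADD45A, a growth arrest protein induced by DNA damage, had 102, 118 and 82.8 CPM in control and 97.7, 95.5 and 100 CPM in labelled-knockdown libraries. The labelled-knockdown libraries lay inside the control range. Its mean was 101 ± 17.5 CPM in control and 97.8 ± 2.32 CPM in labelled-knockdown libraries (SD, n = 3 each). The polo-like kinases PLK2 and PLK3 ranged from 31.8 to 38.5 CPM and from 10.1 to 14.2 CPM. RPS27L, a ribosomal protein paralog of RPS27, ranged from 21.3 to 25 CPM, with a log2 fold change of 0.01. BTG2, an antiproliferative cofactor of mRNA deadenylation, ranged from 0.617 to 1.33 CPM, and its fold interval ran from 0.566 to 1.94. Of the 8 targets in the cell cycle and growth group, 3 estimates lay above 0 and 5 below, with a median log2 fold change of -0.04.

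Of the 4 DNA repair and nucleotide supply targets none passed the test, with 2 estimates above 0 and 2 below. DDB2, the damage-binding subunit that starts nucleotide excision repair in chromatin, lies on chromosome 11 from 47214465 to 47239217. Its level was 38.2, 30.9 and 31.7 CPM in control and 41, 37.2 and 33.6 CPM in labelled-knockdown libraries. Control replicate 1 overlapped the labelled-knockdown libraries while the other two control libraries lay below them all. The means were 33.6 ± 4.01 and 37.3 ± 3.68 CPM (SD, n = 3 each), and the fold of 1.11 had an interval from 0.926 to 1.33. RRM2B, the p53-inducible small subunit of ribonucleotide reductase on chromosome 8, was the most abundant of this group per length of merged exon at 16.4 RPKM, though with the longest GENCODE 29 transcripts DDB2 stood at 19 RPKM and RRM2B at 18 RPKM. It had 88.6, 85.2 and 95.1 CPM in control and 80.9, 94.8 and 86.8 CPM in labelled-knockdown libraries, and the groups interleaved. Its fold interval ran from 0.862 to 1.11. XPC, the damage sensor of nucleotide excision repair, ranged from 22.6 to 30.7 CPM, and 24.6% of its exon bases are shared with another gene. Reads of such bases were not counted, so levels of genes that overlap others are underestimates. POLH, the translesion polymerase eta, ranged from 22.8 to 28.5 CPM.

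All 4 death receptor genes had estimates below 0, their median log2 fold change was -0.31, and none passed the test. TNFRSF10B encodes DR5, a receptor for the death ligand TRAIL. It was the receptor with the highest level, at 138, 137 and 144 CPM in control and 120, 138 and 144 CPM in labelled-knockdown libraries. Labelled-knockdown replicate 1 was the low library, the other two lay within or just above the control range, and the fold interval ran from 0.843 to 1.09. EDA2R, a receptor of the same family that binds ectodysplasin A2, lies on the X chromosome from 66595637 to 66639298. It had 11, 33 and 26 reads in control and 4, 10 and 18 reads in labelled-knockdown libraries, or 0.264, 0.684 and 0.464 CPM against 0.0986, 0.22 and 0.414 CPM. The groups overlapped, and the fold of 0.522 had an interval from 0.21 to 1.3. The TRAIL decoy receptor gene TNFRSF10C was also under 1 CPM in every library, with 30, 39 and 49 reads in control and 36, 13 and 30 reads in labelled-knockdown libraries, and 33% of its exon bases are shared with another gene. FAS, the receptor for Fas ligand, had 7.31, 10.4 and 12.7 CPM in control and 7.96, 7.03 and 10.4 CPM in labelled-knockdown libraries. The groups overlapped, and the log2 fold change was -0.25 (SE 0.215).

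In the mitochondrial and other death or survival group, 7 of 8 targets were tested and none passed, with 2 estimates above 0 and 5 below. TP53INP1 had the lowest p of all tested targets. It encodes a p53-inducible nuclear protein that acts in cell death and autophagy, on chromosome 8 from 94925972 to 94949378. Control replicates had 108, 149 and 136 CPM and labelled-knockdown replicates 118, 84.3 and 112 CPM. Control replicate 1 fell among the labelled-knockdown libraries, and the other two control libraries lay above them all. The means were 131 ± 20.8 and 105 ± 18.1 CPM (SD, n = 3 each), with a log2 fold change of -0.32 (SE 0.157) and an adjusted p of 0.999 in edgeR, from an unadjusted p of 0.0751. The exact two-sided permutation p was 0.3. Its adjusted p ranged from 0.263 to 0.9999 over all alternatives, the lowest being that without a filter on low counts.

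TRIAP1, a small survival protein of the mitochondrial intermembrane space, lies on chromosome 12 from 120443964 to 120446384. It had 32.8, 30.5 and 24.9 CPM in control and 22.4, 28.6 and 24.7 CPM in labelled-knockdown libraries. Control replicate 3 overlapped the labelled-knockdown libraries, and the log2 fold change was -0.22 (SE 0.128). PERP, a tetraspan membrane protein of desmosomes, had the highest level per length of this group. It had 129, 125 and 118 CPM in control and 121, 111 and 113 CPM in labelled-knockdown libraries. The groups overlapped, and the fold interval ran from 0.818 to 1.06. The pore-forming death effector BAX ranged from 27.5 to 37.6 CPM with a log2 fold change of 0.14. BBC3, the BH3-only protein PUMA that frees it to act, was much lower, at 2.93, 6.41 and 4.53 CPM in control and 3.48, 3.55 and 3.52 CPM in labelled-knockdown libraries. The 3 labelled-knockdown values lay within the control range. AEN, an apoptosis-enhancing nuclease, ranged from 32.4 to 43.2 CPM, and PHLDA3, which competes with AKT for membrane lipids, from 18.9 to 21.8 CPM.

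SPATA18, which encodes the mitochondrial quality control protein Mieap, was the 1 target under the filter on low counts. It lies on chromosome 4 from 52051304 to 52097299. It had 4, 0 and 2 reads in control and 14, 10 and 10 reads in labelled-knockdown libraries, or 0.0962, 0 and 0.0357 CPM against 0.345, 0.22 and 0.23 CPM. The groups did not overlap, and in control replicate 2 a count of 0 leaves room for up to 0.0622 CPM. Reads are not independent molecules and mates were counted singly, so counting limits such as this one are too low. Added to the fit, SPATA18 had a log2 fold change of 2.59 (SE 0.865), an unadjusted p of 0.0126 and an adjusted p of 0.999 in edgeR. An exact two-sided permutation test gave p = 0.1, the smallest possible here. Where leaving out 1 library let SPATA18 pass the filter, its log2 fold change was 3.65 without control replicate 1, with an unadjusted edgeR p of 0.00774. It was 2.34 without labelled-knockdown replicate 1, with an unadjusted edgeR p of 0.0541, and 2.67 without labelled-knockdown replicate 3, with one of 0.0283. SPATA18 is not among the 31 targets of the main counts, but it is among the 32 of those alternatives in which it passed the filter. With a library left out it passed only through labelled-knockdown libraries, as no control library held more than 4 reads. Its p in those fits, and its place in their counts, are therefore not evidence of a difference.

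Of the 5 metabolism and redox targets, 4 had estimates above 0 and 1 below, the median log2 fold change was 0.17, and none passed the test. TP53I3, a quinone oxidoreductase on chromosome 2 from 24077433 to 24085861, had 25.8, 20 and 22.4 CPM in control and 30.2, 26.5 and 23.1 CPM in labelled-knockdown libraries. Control replicate 1 overlapped the labelled-knockdown libraries. The means were 22.8 ± 2.92 and 26.6 ± 3.55 CPM (SD, n = 3 each), and the fold of 1.17 had an interval from 0.955 to 1.44. FDXR, the mitochondrial reductase that passes electrons to ferredoxin, had 16.7, 17.1 and 18.7 CPM in control and 17.3, 22.4 and 19.5 CPM in labelled-knockdown libraries. Its groups overlapped, with a fold interval from 0.945 to 1.35. SESN1 and SESN2 encode sestrins, which restrain the growth kinase complex mTORC1. SESN2 had 16.8, 31.2 and 24.3 CPM in control and 19.7, 15.4 and 21.7 CPM in labelled-knockdown libraries, a log2 fold change of -0.35 (SE 0.224). Control replicate 1 again lay among the labelled-knockdown libraries. SESN1 ranged from 17.2 to 22.7 CPM, and TIGAR, a fructose bisphosphatase that diverts glucose from glycolysis, from 1.85 to 3.08 CPM. Of the exon bases of TIGAR 19.4%, and of those of PHLDA3 18.4%, are shared with another gene.

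Variation between libraries of the same group exceeded the difference between groups for several classical targets. The ratio of the highest to the lowest library had a median of 1.34 over the 26 targets with at least 5 CPM, against 1.27 over 11518 genes at that level. It was lowest for PHLDA3 at 1.15 and highest for SESN2 at 2.03, FAS at 1.8, TP53INP1 at 1.77, GDF15 at 1.74 and CDKN1A at 1.62. For SESN2, 96% of the 11518 genes had a smaller ratio, and for CDKN1A 88.5%.

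**Figure D3:**
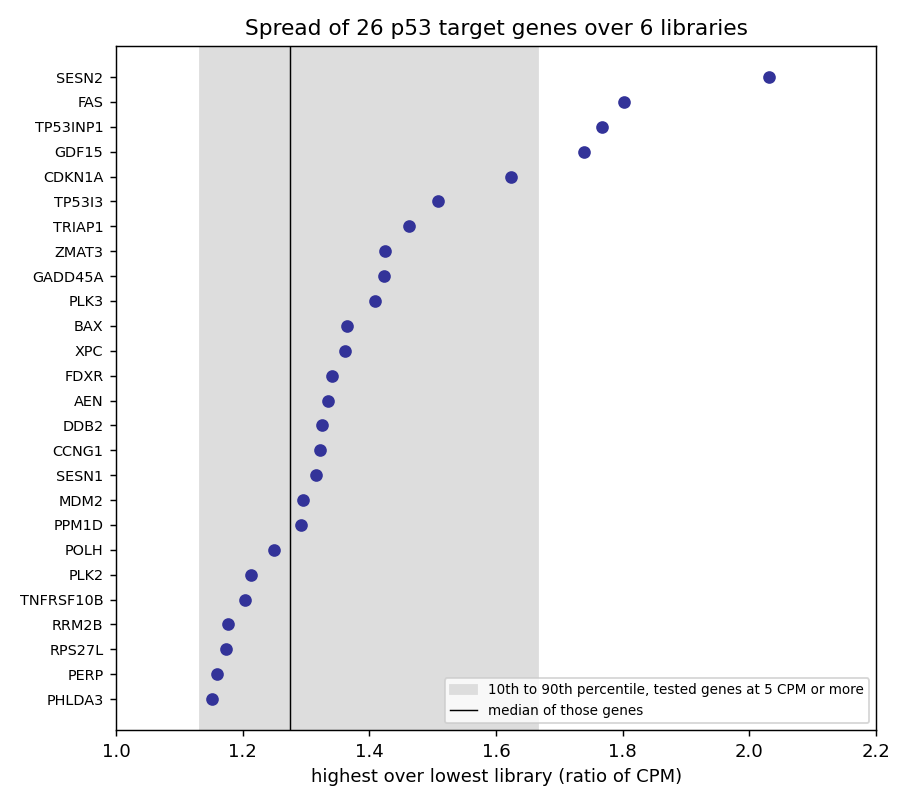
The ratio of the highest to the lowest of the 6 libraries in CPM is shown for each p53 target gene with at least 5 CPM, over a grey band for the 10th to 90th percentile of all 11518 tested genes at that level (1.13 to 1.67) and a line at their median. SESN2, FAS, TP53INP1, GDF15 and CDKN1A stand at the wide end, from 2.03 to 1.62, and PHLDA3 at the narrow end with 1.15.

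Control replicate 1 and labelled-knockdown replicate 2 were the 2 lowest libraries for CDKN1A, GDF15, RPS27L, FAS, TP53INP1, SESN1 and SESN2, which is 7 of 31 tested targets (22.6%) against 10.7% of all tested genes. They were the 2 highest for PLK3 and BAX, 6.45% of the targets against 12.8%. RPS27L and SESN1 varied little, with ratios of 1.17 and 1.32. Over all 31 tested targets, labelled-knockdown replicate 2 had the lowest median deviation from the gene mean, -0.067 in TMM-scaled log2(CPM + 0.1). The median was 0.0077 in control replicate 1 and -0.0071 in labelled-knockdown replicate 1. The mean deviation in log2 CPM, without TMM scaling or the added 0.1, was -0.058 and -0.043 in these libraries. Control replicate 1 was the second lowest by this mean and not by that median, which differ in scaling as well. This pattern was noticed after the values were seen. A list of 20 cell cycle genes that p53 represses through p21 and the DREAM complex was also read. Control replicate 1 and labelled-knockdown replicate 2 were the 2 highest libraries for 19 of the 20, against 12.8% of all tested genes. The list summed to 1309, 945 and 935 CPM in control and 1096, 1449 and 939 CPM in labelled-knockdown libraries. BIRC5, the mitotic survival protein survivin, had 170, 131 and 117 CPM against 134, 195 and 126 CPM. CDK1, the kinase that drives mitosis, had 143, 99.6 and 105 CPM against 122, 148 and 105 CPM. Between the groups, 0 of the 20 passed the test and 0 had an unadjusted p under 0.05, with 19 estimates above 0 and a median log2 fold change of 0.11. Control replicate 1 and labelled-knockdown replicate 2 were picked from the targets' own values, so the fit without both is a description only. In that fit, 6 of the 32 then tested targets (18.8%) had an unadjusted p under 0.05 in edgeR, against 5.06% of all genes. Of these 6, 3 were higher and 3 lower. SPATA18, which passed the filter there only through labelled-knockdown libraries, was 1 of the 3 higher. The part of proliferation or of p53 activity in the variation of the targets was not tested.

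**Figure D4:**
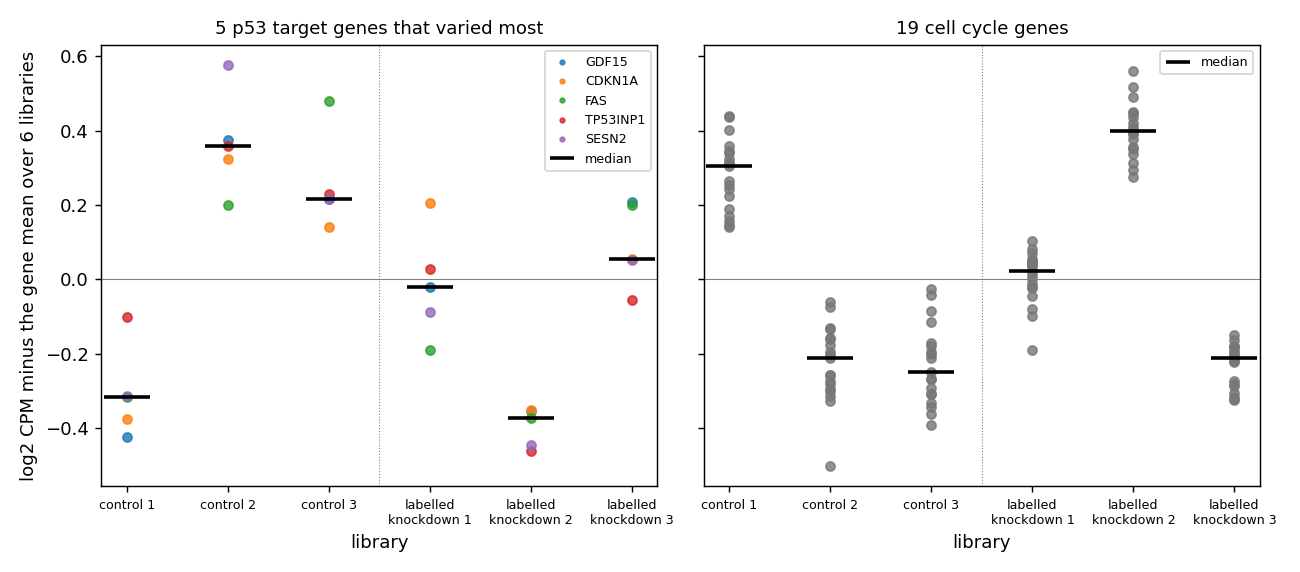
Left, deviation of log2 CPM from the gene mean, by library, with the median as a black bar. Shown are the 5 p53 target genes with the widest ratios among those with at least 5 CPM. Targets at lower levels, EDA2R, TNFRSF10C, BBC3 and BTG2, had wider ratios and are not shown. Right, the same for 19 cell cycle genes with at least 5 CPM, where the medians of control replicate 1 and labelled-knockdown replicate 2 are the highest, while on the left, for these 5 targets only, they are the lowest.

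Of 20 genes of the p53 family and its regulators, 19 were tested and none passed the test or had an unadjusted p under 0.05, with 6 estimates above 0 and 13 below. TP63, a p53 family member of squamous epithelium, had 0.577, 4.09 and 3.05 CPM in control and 0.838, 0.749 and 2.74 CPM in labelled-knockdown libraries. It was low in control replicate 1 as well as in 2 of the labelled-knockdown libraries. CDKN2A, which encodes p16 and the MDM2 inhibitor ARF, was the most abundant gene of this list at 22 RPKM, followed by TP53BP2 at 17.3 RPKM. With transcript lengths CDKN2A was still the highest, at 66.7 RPKM, but PPP1R13L at 24.8 and USP7 at 23.2 RPKM lay above TP53BP2 at 21.8 RPKM. The lowest p belonged to ATR, a damage-sensing kinase, with a log2 fold change of -0.17, and CHEK2, a checkpoint kinase that phosphorylates p53, with 0.18.

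Among 33 further p53 targets, 29 were tested and none passed after adjustment, with 20 estimates above 0 and 9 below. PIDD1, the scaffold of the caspase-2-activating PIDDosome, was the single gene of the 29 with an unadjusted p under 0.05, against 4.03% of all tested genes, so the count is near the background. It had 38.7, 37.4 and 40.6 CPM in control and 49.1, 48.7 and 43.4 CPM in labelled-knockdown libraries. The groups did not overlap, with means of 38.9 ± 1.58 and 47.1 ± 3.19 CPM (SD, n = 3 each), a log2 fold change of 0.28 (SE 0.0889) and an adjusted p of 0.999 in edgeR. TGFA, a ligand of the EGF receptor, had the next lowest p, with a log2 fold change of -0.50. SFN, the 14-3-3 protein sigma, stood at 85.3 RPKM, among the most abundant genes of this list.

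Of 20 family partners of the targets, which share a protein family with them, 19 were tested and none passed. PHLDA1, a relative of PHLDA3, had 215, 220 and 176 CPM in control and 148, 166 and 173 CPM in labelled-knockdown libraries. The groups did not overlap, and the log2 fold change of -0.33 (SE 0.107) had an adjusted p of 0.999 in edgeR. BTG1, a relative of BTG2, had 82.7, 94.6 and 80.9 CPM against 77.7, 71.1 and 78.5 CPM and a log2 fold change of -0.18. Its groups likewise lay apart. These were the 2 of the 19 whose groups did not overlap, against 9.17% of all tested genes. PHLDA1 was the 1 of the 19 with an unadjusted p under 0.05 in edgeR, against 4.03%, so both counts are near the background. Per length, RPS27 at 231 RPKM lay far above its p53-inducible relative RPS27L at 2.63 RPKM, and PHLDA2 at 50.7 RPKM above PHLDA3 at 6.22 RPKM. The TRAIL receptor TNFRSF10A stood at 7.62 RPKM, below TNFRSF10B.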

How the data were processed

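The authors deposited gene-level raw counts of 6 libraries, made with featureCounts 2.0.6 on hg38 with GENCODE 44, per the file headers. The submitters' processing notes also name GRCh38, with the aligner not given in the sources used here. Mates were counted singly, strand was not used, and multi-mapping reads or reads overlapping several genes were not counted, per the file headers. Among genes with 2 to 10 counts, 73.4% to 76.7% of counts were even, so 1 fragment often gave 2 counts.

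Genes were filtered with filterByExpr, scaled with TMM and tested with edgeR 4.0.16 (quasi-likelihood, robust, R 4.3.3) with Benjamini-Hochberg adjustment over 20250 genes at 0.05. The biological coefficient of variation was 18.3%. Groups and replicate numbers came from the sample titles. CPM used library totals, and RPKM divided CPM by the merged exon length of the deposited table. Exact permutation tests used log2(CPM + 0.1). SPATA18 and NNMT were added to the filtered genes for their fold changes. No pair of libraries was a duplicate. Deviations of libraries sharing a number correlated at 0.0567, -0.1 and 0.219, and those of unlike numbers across the groups at -0.248 to 0.171. With 3 libraries per group these values cannot settle whether the numbers pair the samples. The main fit did not pair them.

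The p53 targets and the other lists were chosen with earlier results of these data known. Named in full are the 3 targets with the lowest p per direction, the 5 with the highest level, those under the filter, and the lowest p and highest level of each role group. For other lists, the genes with the 2 lowest p and the 2 highest levels were named, except for results not reported here, and other genes named were chosen after their values were seen. The test was checked on simulated counts of 20250 genes. It gave 12 false calls beside 90 true calls among 100 genes changed 2-fold and 98 among 100 changed 4-fold. Alternatives were other scalings and filters, DESeq2 1.42.0, limma-voom (limma 3.58.1), a non-robust fit, the replicate block, halved counts and leaving out each library. The use of transcript lengths of GENCODE 29, the genes added under the filter, and leaving out 2 libraries together were chosen after seeing the data. Promoter windows came from RefSeq.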

Additional observations from a re-analysis of the deposited data

How the results depend on the processing

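Over all tested genes, the count past the adjusted threshold was 72 without a filter on low counts, 8 with DESeq2 and 0 to 1 with a library left out, the 1 being without control replicate 3, and no p53 target was among those called under any alternative run. The count of targets at an unadjusted p under 0.05 was 3 without the filter (SESN2, SPATA18 and TP53INP1), 1 with DESeq2, 6 without control replicate 1 and labelled-knockdown replicate 2, and 0 to 7 with a library left out. The 6 and the 7 include SPATA18, which passed the filter there only through labelled-knockdown libraries. The libraries left out for the 6 were picked from the targets' own values, so that count is a description only. With a library left out, targets whose groups did not overlap numbered 2 to 11 and the median log2 fold change ran from -0.0864 to -0.0113. Targets under 1 RPKM numbered 2 on the TPM scale, and 7 genes had at least 1 half-site where 1 had a pair. With the replicate block, 0 targets were called, their median log2 fold change was -0.06 and no other call changed. Of 778 alternative fits of 46 named genes, 739 kept their direction and side of the threshold and 39 reversed, over 17 genes with log2 fold changes of at most 0.124 in size. The ranges of the log2 fold change with a library left out were, for these, CCNG1 -0.0811 to 0.144, CDKN1A -0.234 to 0.089, GADD45A -0.176 to 0.0825, BTG2 -0.35 to 0.363, PLK2 -0.116 to 0.0271, GDF15 -0.321 to 0.0405, RPS27L -0.0425 to 0.0629, RRM2B -0.0836 to 0.00633, TNFRSF10B -0.116 to 0.00143, AEN -0.192 to 0.0076, PHLDA3 -0.022 to 0.0605, SESN1 -0.0649 to 0.146, CDKN2A -0.0487 to 0.0647, TP53BP2 -0.125 to 0.0525, PHLDA2 -0.0981 to 0.0853, BIRC5 -0.0908 to 0.301, CDK1 -0.0168 to 0.299. BTG2 was -0.0154 with limma-voom. Without control replicate 1 and labelled-knockdown replicate 2 together, GADD45A was 0.00158, PLK2 0.0512, RPS27L -0.00991, PHLDA3 -0.0366, CDKN2A 0.0121 and PHLDA2 -0.0828. The cause was not tested. Depth limited SPATA18, EDA2R and TNFRSF10C, and 3 libraries per group limited all tests.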

Other observations

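The p53 targets GDF15 and SESN2 are also known as targets of ATF4, the transcription factor of the amino acid stress response, and a list of 12 ATF4 genes was added after the data were seen. None of the 12 passed the edgeR test after adjustment, and 3 had an unadjusted p under 0.05, against 4.03% of all tested genes, with DDIT4 higher and SLC7A11 and ATF3 lower in labelled-knockdown libraries. ATF3, a stress-induced transcription factor, had 10.1, 11.7 and 10.4 CPM in control and 7.03, 6.41 and 8.79 CPM in labelled-knockdown libraries. It was the 1 of the 12 whose groups did not overlap, against 9.17% of all tested genes, so this count is near the background. Estimates lay above 0 for 4 of the 12 and below 0 for 8. As the list was chosen after the values were seen, its counts are a description only. The list summed to 334, 437 and 469 CPM in control and 347, 356 and 437 CPM in labelled-knockdown libraries. TRIB3, a pseudokinase, had 41.9, 73.9 and 93.5 CPM against 54.7, 57.3 and 73.7 CPM. Control replicate 1 was the lowest library for this list, as it was for CDKN1A and GDF15. These values were read from the same libraries as the p53 targets and are not independent of them.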
